A study of Mus musculus with 60 samples.

Results

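The dentate granule cell identity genes are 9 protein-coding genes that are used as markers of the granule cell, the main excitatory neuron of the dentate gyrus (DG): *Dsp*, *C1ql2*, *C1ql3*, *Tdo2*, *Lct*, *Pdzd2*, *Trpc6*, *Stxbp6* and *Npnt*. They were taken as a named list, 9 of the 46480 genes in the count tables, and all 9 passed the filter on low counts (over 10 fragments in 2 or more samples), as did 17040 genes in all. RNA-Seq, which counts sequenced RNA fragments per gene, was done on punches of dorsal and ventral DG from male mice of strain C57BL6J. Mice were weaned on day 22, kept for 8 weeks in standard housing (SH, 3 mice per cage) or an enriched environment (EE, 12 mice in a larger cage with running wheels and toys that were changed every week) and killed on day 80. The labels name no genotype or drug for any group. Each region had 5 SH and 5 EE samples, of which 4 SH and 5 EE samples were used, since SH replicate 3 was left out in both regions. Each sample pooled tissue of several mice, and both regions were taken from the mice of a pool, so there were 9 pools, 4 of SH and 5 of EE.

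The DG receives the cortical input of the hippocampus, and its granule cells send mossy fibre axons to the hilus and to CA3. Granule cells lie along a dorsal to ventral (septotemporal) axis, whose dorsal pole is best known for spatial memory and whose ventral pole for emotional behaviour, and they are among the few neurons still born in the adult rodent. The 9 genes encode quite different proteins. *C1ql2* and *C1ql3* encode secreted C1q-like proteins that organize synapses, and C1QL2 and C1QL3 from mossy fibres are known to bind kainate-type glutamate receptors and neurexins. *Stxbp6* encodes amisyn, which binds syntaxin in SNARE complexes, the machinery of vesicle fusion. *Trpc6* encodes a cation channel opened downstream of phospholipase C. *Dsp* encodes desmoplakin, which ties desmosomes to intermediate filaments in epithelia and heart. *Npnt* encodes nephronectin, a matrix protein bound by integrins, and *Pdzd2* a protein with many PDZ domains. *Lct* encodes lactase, better known from the gut, and *Tdo2* tryptophan dioxygenase, which opens the ring of tryptophan on the way to kynurenine.

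The stretches of DNA ahead of the 9 genes differed widely in base composition. RefSeq promoter sequences (GRCm38.p6, windows from 250 bases before to 50 bases after a gene's start) matched all 9 genes, with 10 windows, since *Npnt* had a pair of them. The GC content was 44.7% for *Lct* and 47.7% for *Tdo2* and between 60% and 76.7% in the other 8 windows, against a median of 52.7% and quartiles of 45.7% and 61.7% over all 32851 windows. The 250 bases before the start are shown for 4 genes whose RefSeq and Gencode starts coincide. *Lct* and *Dsp* had the largest regional differences described below, and *Trpc6* varied between libraries apart from the others. *C1ql2* had the highest level of the 9 genes in dorsal DG when scaled for transcript length. Each is printed from 5′ to 3′ on the strand of its gene, and capitals mark the E-box core CANNTG, the letters that basic helix-loop-helix factors such as NeuroD1 bind. *Lct* is at chr1:128328319-128328568 on the minus strand, *Dsp* at chr13:38151044-38151293, *C1ql2* at chr1:120340332-120340581 and *Trpc6* at chr9:8543892-8544141, the last 3 on the plus strand.
Lct: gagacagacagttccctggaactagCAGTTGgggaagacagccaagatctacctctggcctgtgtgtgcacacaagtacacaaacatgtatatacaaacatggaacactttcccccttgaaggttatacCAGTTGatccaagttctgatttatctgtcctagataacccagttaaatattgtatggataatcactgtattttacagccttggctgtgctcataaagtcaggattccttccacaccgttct
Dsp: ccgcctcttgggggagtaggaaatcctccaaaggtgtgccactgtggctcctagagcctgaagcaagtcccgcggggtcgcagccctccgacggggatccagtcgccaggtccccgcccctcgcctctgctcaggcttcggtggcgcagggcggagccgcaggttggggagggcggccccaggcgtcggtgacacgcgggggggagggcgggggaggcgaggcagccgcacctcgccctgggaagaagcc
C1ql2: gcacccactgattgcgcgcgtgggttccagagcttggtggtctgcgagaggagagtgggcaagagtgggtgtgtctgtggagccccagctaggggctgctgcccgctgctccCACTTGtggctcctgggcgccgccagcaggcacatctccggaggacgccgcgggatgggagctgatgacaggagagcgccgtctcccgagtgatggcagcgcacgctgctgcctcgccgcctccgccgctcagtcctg
Trpc6: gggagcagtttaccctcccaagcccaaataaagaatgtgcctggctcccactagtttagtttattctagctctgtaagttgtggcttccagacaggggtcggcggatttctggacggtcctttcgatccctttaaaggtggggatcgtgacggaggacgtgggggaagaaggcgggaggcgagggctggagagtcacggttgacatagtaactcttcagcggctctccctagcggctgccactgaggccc

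Searched on both strands, CANNTG was present in 6 of the 10 windows and in 72.3% of all windows of the same length. The window of *Lct* held 2 matches, those of *C1ql2* and *Dsp* held 1 each, and those of *Tdo2*, *Trpc6* and *Pdzd2* held 0. The match of *Dsp* lay after the gene's start and so outside the printed bases. The letters CAGATG, one form of CANNTG, were in 0 of 10 windows and in 17.2% of all windows, and the outline of a MEF2 site (CTA, 4 bases of any kind and TAG) was in 0 of 10 and in 3.69%. A match is a description of the letters, and its absence says only that these letters were not in the window. For *C1ql3*, *Tdo2*, *Stxbp6* and *Pdzd2* the RefSeq start lay 942, 474, 226 and 32 bases inside the gene as Gencode draws it. The start of the downstream window of *Npnt*, which held all CANNTG matches of that gene, lay 477 bases inside. These windows thus lay partly or wholly within their genes.

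The 18 libraries had 22919364 to 28301861 fragments on genes. Every member was well counted in every library, from 347 for *Tdo2* in its lowest library to 7687 for *C1ql3* in its highest. The 9 genes together took 0.145% of the fragments in dorsal and 0.0733% in ventral DG. The libraries were whole tissue. The granule cell transcription factor *Prox1* averaged 185 CPM (fragment counts scaled to library size, with the TMM method) and *Calb1*, which encodes the calcium buffer calbindin, 199 CPM. The libraries that stood apart were 3. Ventral EE replicate 3 had the lowest and ventral EE replicate 4 the highest summed level of the 9 genes in ventral DG, 572 and 855 CPM, and dorsal SH replicate 1 had more choroid plexus RNA than the other dorsal libraries.

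Within a library, levels of different genes were compared in TPM, the deposited unit that is scaled for transcript length. TPM is dominated here by short non-coding RNAs, of which 7 genes took 61.7 to 74.9% of all TPM, so each member is given as a share of the summed TPM of the 9. *C1ql2* and *C1ql3* were the most abundant members in every library. In dorsal DG *C1ql2* ranked first in all 9 libraries, with 25.1% ± 0.37 of the sum in SH and 27.8% ± 0.61 in EE (SD, n = 4 and 5), before *C1ql3* with 23.2% ± 1.1 and 21.1% ± 0.73. In ventral DG the order was the opposite in all 9 libraries, with *C1ql3* at 29.6% ± 0.65 in SH and 28.7% ± 0.94 in EE and *C1ql2* at 25.5% ± 0.093 and 25.8% ± 1.9.

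The next pair was *Stxbp6* and *Trpc6*, whose shares did not differ beyond their spread: in dorsal SH they held 14.5% ± 0.70 and 12.7% ± 2.5. The share of *Lct* was 8.23% ± 0.60 in dorsal SH and 4.29% ± 0.61 in ventral SH, and it ranked 5 in every dorsal library. *Dsp* ranked 6 in every dorsal library, with 6.17% ± 0.57 in SH. *Pdzd2*, *Tdo2* and *Npnt* came after them in dorsal DG, and *Npnt* was last in all 9 dorsal libraries, with 2.72% ± 0.17 in SH. In ventral DG *Tdo2* ranked 5 or 6, with 4.86% ± 0.64 in SH.

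**Figure D1:**
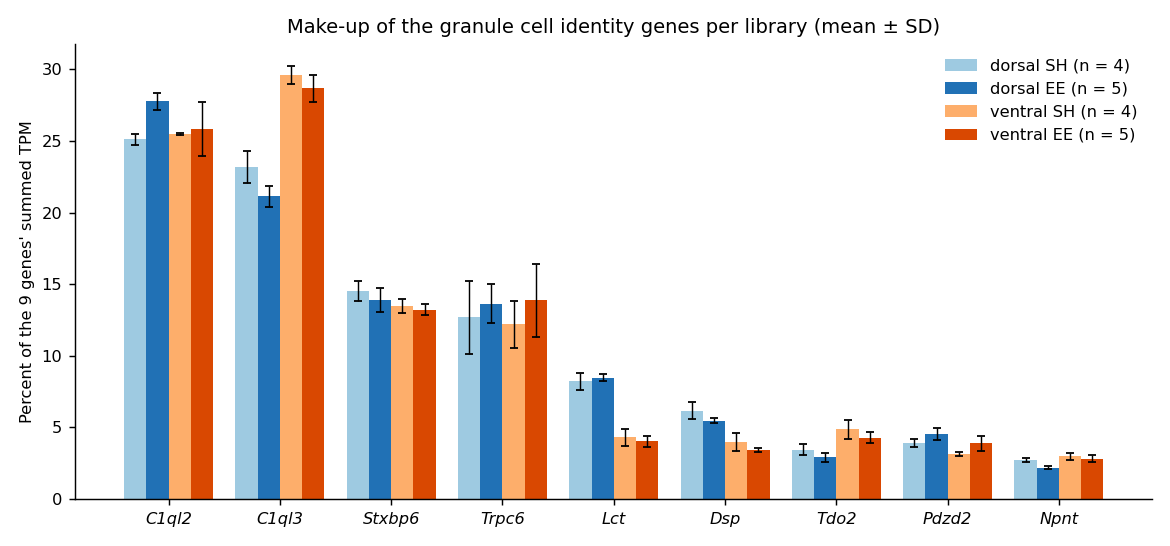
Share of each gene in the summed TPM of the 9 granule cell identity genes (percent, vertical axis), as the mean of the libraries of each group with SD bars (n = 4 SH and 5 EE per region). *C1ql2* was first in dorsal DG and *C1ql3* in ventral DG, and *Lct* held 8.23% in dorsal SH against 4.29% in ventral SH.

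Dorsal and ventral DG were compared to ask how granule cell marker expression differs between the poles of the DG. All 9 genes were higher in dorsal DG. The difference was largest for *Lct* (3.68-fold) and *Dsp* (2.76-fold), between 1.84-fold and 2.05-fold for *Trpc6*, *C1ql2*, *Stxbp6* and *Pdzd2*, 1.59-fold for *Npnt*, and smallest for *C1ql3* (1.38-fold) and *Tdo2* (1.31-fold). A gene was called when its FDR was under 0.05 and its difference at least 20% (quasi-likelihood test of edgeR, Benjamini-Hochberg adjustment over all 17040 genes, region difference averaged over both housings). All adjusted p values are from this test where no other tool is named. All 9 members were called as higher in dorsal DG, where 15.9% of the genes tested were. The members were chosen with earlier results of these data known, so this contrast is a description. The median log2 fold change of the members was 0.89 and that of all genes tested was -0.0046. Within SH and within EE alone, 9 of 9 members were called as well, against 14.1% and 14.1% of genes. In 7 of the 9, every dorsal library was above every ventral library, which was so for 9.51% of genes. The exceptions were *C1ql3* and *Tdo2*. In a bulk sample, fewer cells of a type and less RNA of a gene per cell cannot be told apart. The dorsal tissue was punched from coronal and the ventral tissue from horizontal sections, and region and plane of section cannot be told apart either.

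**Figure D2:**
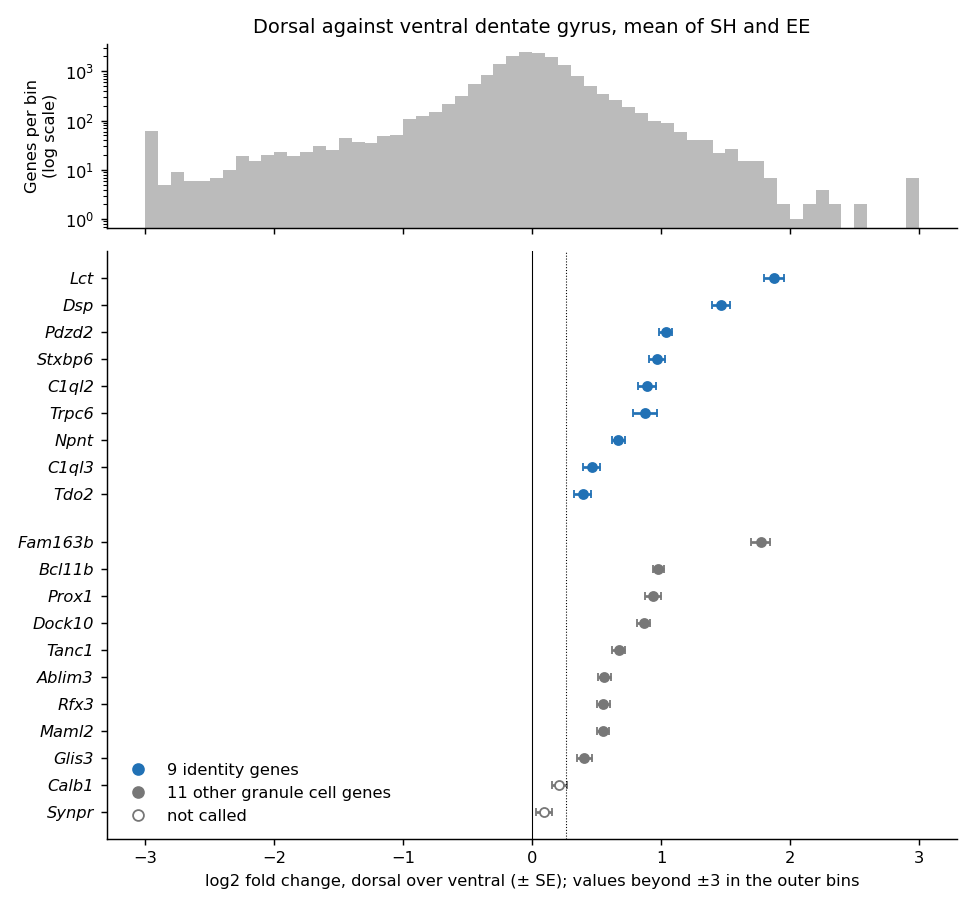
Difference between dorsal and ventral DG on the log2 scale (horizontal axis), for all 17040 genes tested as a histogram (log vertical axis) and below for the 9 identity genes and 11 other granule cell genes with SE bars. Filled points were called, open points were not, and the dotted line marks the 1.2-fold limit. The 9 identity genes lie between 0.39 (*Tdo2*) and 1.88 (*Lct*).

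Among the genes for enzymes, *Lct* (chromosome 1, 128284756 to 128328318, GRCm38) had 218, 196, 218 and 228 CPM in dorsal SH replicates 1, 2, 4 and 5, and 200, 208, 225, 235 and 219 CPM in dorsal EE replicates 1 to 5. In ventral DG it had 62.0, 52.7, 76.6 and 58.8 CPM in SH and 51.8, 49.4, 46.1, 73.9 and 55.6 CPM in EE. The lowest dorsal library was thus well above the highest ventral one, while the housings overlapped in both regions. The log2 fold change was 1.88 (SE 0.08, adjusted p = 4.85e-15), and the dorsal to ventral ratio lay between 2.85 and 4.89 in the 9 pools. Of the genes near *Lct* or related to it, *Mcm6*, a DNA replication helicase gene next to *Lct* on the chromosome, was higher in dorsal DG, at 47.7 ± 3.8 CPM against 24.9 ± 3.4 CPM in ventral DG (SD, n = 9 each, log2 fold change 0.94, SE 0.06). The glucosylceramidase gene *Gba2* was the other gene of this list that was higher (0.39, SE 0.04). The other near genes, *Dars* and *Ubxn4*, were not called (log2 fold changes -0.07 and 0.01), and *Lctl* did not pass the count filter.

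*Tdo2* (chromosome 3, 81957090 to 81976202) was the least regional member. It had 29.1, 30.4, 30.2 and 31.6 CPM in dorsal SH, 23.1, 23.7, 20.9, 24.8 and 27.4 CPM in dorsal EE, 25.9, 22.5, 26.1 and 20.8 CPM in ventral SH, and 17.6, 17.3, 13.6, 21.7 and 18.5 CPM in ventral EE. Dorsal SH was above all other groups, dorsal EE overlapped both ventral groups, and within each pool the dorsal library was the higher one, by 1.12 to 1.53 times. The log2 fold change was 0.39 (SE 0.07, adjusted p = 3.52e-05). The rest of the tryptophan pathway was sparse. Of the 11 other genes on its list 5 passed the count filter, and *Ido1*, *Kmo*, *Kynu*, *Haao*, *Aadat* and *Tph1* did not. *Kyat1* and *Kyat3*, which encode kynurenine aminotransferases, were the most abundant, with means of 8.26 and 4.73 CPM in the dorsal libraries and 9.30 and 5.50 CPM in the ventral ones, and were not called. The 1 gene called, *Tph2*, the tryptophan hydroxylase of serotonergic neurons, averaged 4.23 ± 0.46 CPM in dorsal against 1.40 ± 0.26 CPM in ventral DG.

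Among the genes for synaptic proteins, *C1ql2* (chromosome 1, 120340582 to 120343174) had 210, 203, 202 and 211 CPM in dorsal SH and 209, 229, 223, 234 and 233 CPM in dorsal EE. In ventral DG it had 124, 117, 126 and 112 CPM in SH and 105, 105, 84.9, 150 and 119 CPM in EE. The dorsal SH libraries were close to one another, and the ventral EE libraries were spread over a wider range than all other groups. Its log2 fold change was 0.89 (SE 0.07, adjusted p = 2.45e-10). *C1ql3* (chromosome 2, 13003457 to 13011806) ranged from 213 to 276 CPM in dorsal and from 131 to 215 CPM in ventral DG, and the ranges overlapped only through ventral EE replicate 4, at 215 CPM. Its log2 fold change was 0.46 (SE 0.06, adjusted p = 2.31e-06). The dorsal to ventral difference of *C1ql2* exceeded that of *C1ql3* in 9 of 9 pools, by 0.45 ± 0.16 on the log2 scale (mean and SD over pools).

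Known partners and relatives of the C1q-like proteins were together on a list of 14 genes, 13 of which passed the filter. In dorsal DG 2 of them were higher and 4 lower, and their median log2 fold change was 0.08. *Grik3*, which encodes a kainate receptor subunit, was higher in dorsal DG (0.56, SE 0.05), as was the neurexin gene *Nrxn3* (0.35, SE 0.05), and *Grik4* was lower (-0.52, SE 0.04). The other lower genes, *Cbln2* (-0.36, SE 0.10), *Cbln3* and *Cbln4*, encode relatives of the C1q-like proteins. *Cbln4* was at 3.32 ± 0.54 CPM in dorsal against 5.73 ± 0.92 CPM in ventral DG. *Cbln3* was near the limit of detection, with 38 counts over the 9 dorsal and 388 over the 9 ventral libraries.

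*Stxbp6* (chromosome 12, 44852484 to 45074709) ranged from 176 to 235 CPM in dorsal and from 86.8 to 128 CPM in ventral DG. Its log2 fold change was 0.97 (SE 0.06, adjusted p = 7.17e-12), and the ratio within pools was 1.71 to 2.44. Of the 9 other genes on the SNARE list 2 were higher and 1 lower in dorsal DG, with a median log2 fold change of 0.05. *Stxbp5l*, which encodes a tomosyn, was among the higher (153 ± 6.4 against 103 ± 5.2 CPM) and the syntaxin gene *Stx1a* was the lower one (52.1 ± 3.1 against 77.2 ± 3.3 CPM). *Snap25*, the most abundant of the list, was at 1795 and 1911 CPM and did not pass the test.

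*Trpc6* (chromosome 9, 8544142 to 8680741) had 159, 235, 169 and 162 CPM in dorsal SH and 173, 220, 201, 187 and 179 CPM in dorsal EE. In ventral DG it had 119, 103, 93.6 and 82.1 CPM in SH and 105, 135, 84.0, 108 and 85.4 CPM in EE. The regions did not overlap, and replicate 2 was the highest library of dorsal SH, dorsal EE and ventral EE, though not of ventral SH. The log2 fold change was 0.88 (SE 0.09, adjusted p = 3.85e-08), with the largest SE of the 9 members. Of the 5 other TRPC channel genes that passed the filter, *Trpc5* was higher in dorsal DG (37.2 ± 2.8 against 30.3 ± 2.3 CPM) and *Trpc7* lower (1.55 ± 0.30 against 5.85 ± 0.68 CPM). *Trpc1* and *Trpc4*, the most abundant of them, were not called (log2 fold changes 0.12 and -0.15).

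Among the genes for adhesion, matrix and scaffold proteins, *Dsp* (chromosome 13, 38151294 to 38198577) had 248, 200, 187 and 216 CPM in dorsal SH and 181, 178, 194, 189 and 186 CPM in dorsal EE. In ventral DG it had 72.8, 69.6, 99.2 and 78.8 CPM in SH and 60.3, 64.3, 55.0, 75.2 and 68.9 CPM in EE. Every dorsal library was above every ventral one, and dorsal SH replicate 1 was the highest. The log2 fold change was 1.47 (SE 0.07, adjusted p = 3.57e-14). Most genes of the desmosome, the junction to which desmoplakin belongs, were at low levels. Of the 13 on the list 8 passed the filter, and *Dsg1a*, *Dsg1b*, *Dsg3*, *Dsc1* and *Pkp3* did not. In dorsal DG 3 of the 8 were higher and 2 lower, with a median log2 fold change of -0.03. *Dsg2*, which encodes a desmosomal cadherin, was higher in dorsal DG (log2 fold change 0.97, SE 0.10), and so was *Jup*, which encodes plakoglobin (0.31, SE 0.05). *Perp*, which encodes a membrane protein of desmosomes, was lower (-0.96, SE 0.13). *Pkp4*, the most abundant of them with means of 311 (dorsal) and 305 CPM (ventral), was not called. *Pkp1* had 81 counts over the 9 dorsal and 5 over the 9 ventral libraries and was the other higher gene, and *Dsc3*, with 6 and 84, was the other lower one.

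*Pdzd2* (chromosome 15, 12359711 to 12739924) ranged from 83.7 to 111 CPM in dorsal and from 42.7 to 56.9 CPM in ventral DG, with a log2 fold change of 1.04 (SE 0.05, adjusted p = 3.22e-14). *Il16*, which encodes a protein with similar PDZ domains, was also higher in dorsal DG (75.7 ± 6.7 against 61.0 ± 4.8 CPM), and *Golph3*, chosen with it as a neighbour, was not called (log2 fold change 0.03). *Npnt* (chromosome 3, 132881745 to 132950291) ranged from 38.9 to 53.0 CPM in dorsal and from 23.6 to 34.9 CPM in ventral DG, with a log2 fold change of 0.67 (SE 0.05, adjusted p = 1.18e-10). Of the 5 genes for its integrins and its relative *Egfl6*, 1 was called. It was *Itga8*, which encodes the integrin subunit for which nephronectin is the best known ligand, with 42.2 ± 2.6 CPM in the dorsal and 33.45 ± 2.3 CPM in the ventral libraries.

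**Figure D3:**
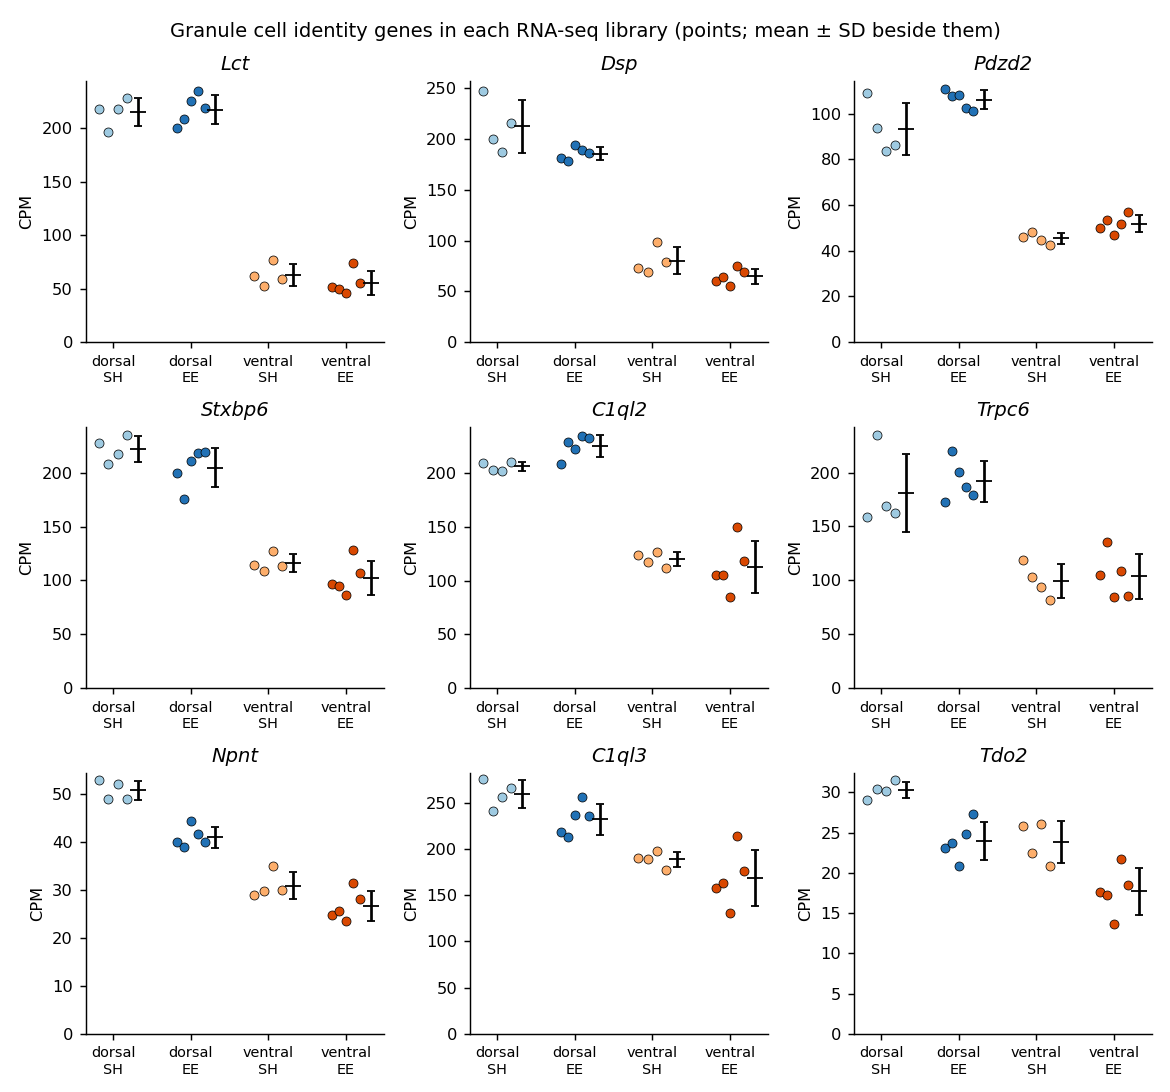
Level of each of the 9 granule cell identity genes (CPM, vertical axis from 0) in the 18 libraries, 1 point per library in order of replicate number, with the mean and SD of each group beside the points (n = 4 SH and 5 EE per region). Panels run from the largest to the smallest regional difference. The dorsal and ventral points are apart in all panels but *C1ql3* and *Tdo2*.

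The order of the regional differences was partly resolved by the pools. The difference of *Lct* was above that of *Dsp* in 9 of 9 pools, that of *Dsp* above that of *Pdzd2* in 9 of 9, and that of *Npnt* above that of *C1ql3* in 9 of 9. Neighbours whose mean difference was within the SD over pools were *Pdzd2* and *Stxbp6* (0.06 ± 0.15 on the log2 scale, the first higher in 6 of 9 pools), *Stxbp6* and *C1ql2* (0.06 ± 0.14, in 7), *C1ql2* and *Trpc6* (0.03 ± 0.27, in 4), *Trpc6* and *Npnt* (0.22 ± 0.30, in 8), and *C1ql3* and *Tdo2* (0.07 ± 0.17, in 5).

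Other granule cell genes also leaned to dorsal DG. A list of 11, also chosen with earlier results of these data known, holds *Prox1*, *Dock10*, *Rfx3* and *Bcl11b* among others. Of these 11 genes 9 were called as higher and 0 as lower in dorsal DG, with a median log2 fold change of 0.56. Their range reached from *Synpr*, the gene of the vesicle protein synaptoporin (397 ± 40 against 372 ± 44 CPM, not called), and *Calb1* (213 ± 25 against 184 ± 22 CPM, under the 1.2-fold limit) to *Fam163b* (49.9 ± 4.5 against 14.6 ± 2.3 CPM). The mean log2 CPM of these 11 genes was 0.69 higher in dorsal DG. Measured against that mean within each library, *Lct* (1.198 ± 0.17, SD over 9 pools), *Dsp* (0.78 ± 0.18), *Pdzd2* (0.34 ± 0.078) and *Stxbp6* (0.28 ± 0.090) were still higher in dorsal DG in 9 of 9 pools, and *C1ql2* (0.21 ± 0.19) in 8 and *Trpc6* (0.19 ± 0.27) in 7. *Npnt* was level with the list (-0.022 ± 0.082, higher in 3 of 9 pools). *C1ql3* (-0.23 ± 0.082, 0 of 9 pools) and *Tdo2* (-0.30 ± 0.17, 1 of 9) were lower in dorsal DG on this scale, so that their direction turned with the reference.

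Markers of other cell types moved with region too. All 6 choroid plexus genes on a list of 6, among them the transthyretin gene *Ttr*, were lower in dorsal DG, and their summed level was 25.4 to 208 CPM in dorsal SH, 22.5 to 68.9 in dorsal EE, 388 to 1095 in ventral SH and 416 to 1420 in ventral EE. Of the 5 hilar mossy cell genes 2 were lower in dorsal DG (summed level 28.1 to 35.9 CPM in dorsal SH, 29.4 to 39.9 in dorsal EE, 95.1 to 124 in ventral SH and 80.5 to 123 in ventral EE). Of the habenula and thalamus genes 4 of the 6 that passed the filter were higher in dorsal DG (86.9 to 120, 84.2 to 113, 26.1 to 29.8 and 24.6 to 32.3 CPM in the same order). Most of this sum was *Prkcd*, with means of 82.1 CPM in the dorsal and 16.4 CPM in the ventral libraries. *Tac2* and *Tcf7l2* were not called. All 4 immature neuron genes were higher in dorsal DG (117 to 121, 104 to 127, 78.4 to 87.6 and 71.9 to 91.8 CPM). The other lists were mixed, with 3 of 10 CA pyramidal cell genes higher and 4 lower in dorsal DG, 1 of 8 interneuron genes higher and 3 lower, and 1 lower in each of the lists of 6 astrocyte, 6 oligodendrocyte, 6 microglia and 7 endothelial and mural genes. No gene of these lists was at 0 in all libraries. The part of these cell types in the regional differences was not tested. Without the 3 libraries that stood apart, 9 of 9 members were still called as higher in dorsal DG.

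EE and SH were compared within each region to ask whether enrichment moved granule cell marker expression. In dorsal DG *Npnt* fell by 0.31 on the log2 scale in EE (SE 0.07, edgeR, adjusted p = 0.029), which is 0.81 times the SH level, and it was the 1 member called of 9, where 0.634% of genes were called in either direction. The other 8 members did not pass the test, and their log2 fold changes lay between -0.34 (*Tdo2*) and 0.19 (*Pdzd2*). The median over the members was -0.12, beside -0.0034 over all genes tested and -0.04 over the 11 other granule cell genes, of which 0 were called. At an unadjusted p under 0.05 there were 4 members, and 8.81% of all genes. Of the lists of related genes, the kainate receptor gene *Grik3* fell by 0.36 on the log2 scale (adjusted p = 0.016), and the plakophilin gene *Pkp1* rose from a very low level (0.14 ± 0.026 to 0.52 ± 0.14 CPM, adjusted p = 0.0083). Of the 8 interneuron markers 1 was called, the neuropeptide Y gene *Npy*, which was higher in EE in dorsal (log2 fold change 0.60, adjusted p = 4.0e-05) and ventral DG (0.40, adjusted p = 0.0085). Of the 4 immature neuron, 5 hilar mossy cell and 6 choroid plexus genes, 0 were called in either region.

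*Npnt* was at 53.0, 49.0, 52.0 and 49.0 CPM in dorsal SH and at 39.9, 38.9, 44.4, 41.6 and 40.1 CPM in dorsal EE. All SH libraries were above all EE libraries, which held for 2 members, *Npnt* and *Tdo2*, and for 1.78% of genes. The call of *Npnt* depended on single pools. When 1 pool was left out it was kept without EE replicate 3 or 4 and lost in the other 7 fits (adjusted p from 0.021 to 0.12 over the 9), and it was lost without the 4 libraries numbered 2 (adjusted p = 0.095). SH replicate 3, which is not among these libraries, had 43.9 CPM, within the range of dorsal EE. With it kept, the log2 fold change was -0.27 (adjusted p = 0.046).

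*Tdo2* in dorsal DG was at 30.3 ± 1.0 CPM in SH and 24.0 ± 2.4 CPM in EE (SD, n = 4 and 5), with a log2 fold change of -0.34 (SE 0.09, adjusted p = 0.12). Its groups did not overlap, also with SH replicate 3 kept, and of the alternatives by region it passed the threshold under 3, namely without the filter on low counts (adjusted p = 0.021), with the likelihood ratio test (0.041) and with dorsal libraries alone (0.019). *Pdzd2* was at 93.2 ± 11 CPM in SH and 106 ± 4.1 CPM in EE (log2 fold change 0.19, SE 0.07, adjusted p = 0.30). Dorsal SH replicate 1, at 109 CPM, lay among the EE libraries, and without its pool the log2 fold change was 0.27 (adjusted p = 0.040). *C1ql2* had 206 ± 4.5 CPM in SH and 225 ± 10 CPM in EE (log2 fold change 0.13, SE 0.10, adjusted p = 0.77), and *Lct* 215 ± 13 and 217 ± 14 CPM (0.01, SE 0.10). The values for *Dsp* were 213 ± 26 and 186 ± 6.3 CPM (-0.19, SE 0.09), with 248 CPM in SH replicate 1. Over the fits that left out 1 pool the log2 fold change of *Dsp* ran from -0.25 to -0.11.

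In ventral DG 0 of 9 members were called by edgeR, where 0.241% of genes were, and 5 members had an unadjusted p under 0.05, as did 7.58% of all genes. DESeq2 called 1 member. In both tools the member with the smallest p was *Tdo2*, at 23.8 ± 2.6 CPM in SH and 17.7 ± 2.9 CPM in EE (log2 fold change -0.42, SE 0.10, adjusted p = 0.077 from edgeR and 0.0095 from DESeq2). Its groups overlapped through ventral EE replicate 4, at 21.7 CPM, and ventral SH replicate 5, at 20.8 CPM. With the replicate number as a block in the fit the log2 fold change was -0.37 (adjusted p = 0.020), without EE replicate 4 it was -0.51 (adjusted p = 0.016), and over the fits that left out 1 pool the adjusted p ran from 0.016 to 0.41. *Dsp* had 80.1 ± 13 CPM in SH and 64.7 ± 7.8 CPM in EE (-0.31, SE 0.10, adjusted p = 0.30), a difference that was -0.19 without SH replicate 4, and *Npnt* 30.9 ± 2.8 and 26.7 ± 3.1 CPM (-0.21, SE 0.07, adjusted p = 0.39). No member had all SH libraries above all EE libraries, which held for 1.17% of genes.

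**Figure D4:**
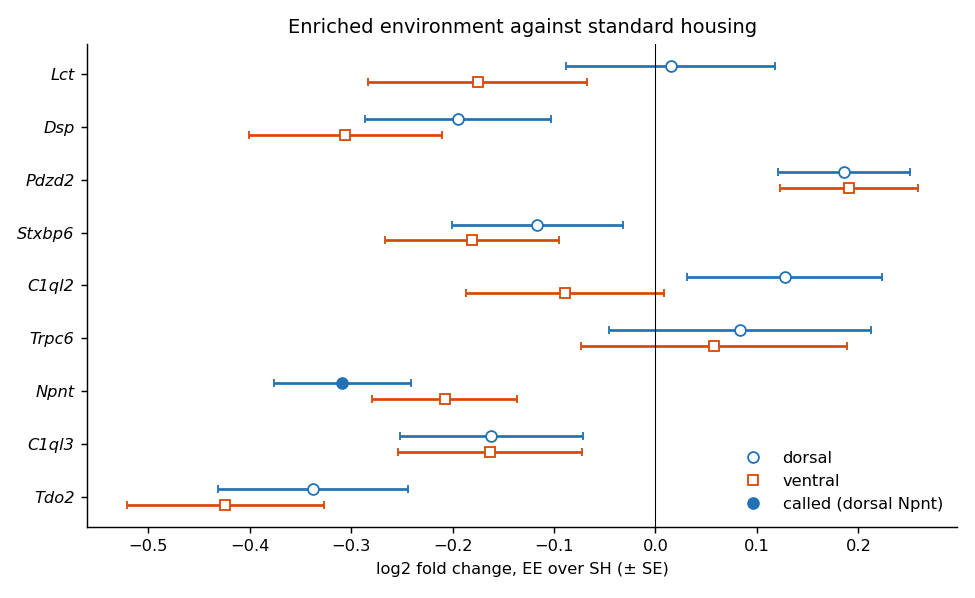
Difference between EE and SH on the log2 scale (horizontal axis) for each granule cell identity gene in dorsal DG (circles) and ventral DG (squares), with SE bars (n = 4 SH and 5 EE per region). The filled circle is the 1 value called, *Npnt* in dorsal DG at -0.31. The values of *Tdo2* are the lowest, -0.34 and -0.42.

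The EE effects of the regions were compared by the interaction of region and housing. It was significant for 0 of 9 members by edgeR, where it was for 0.00587% of all genes. At an unadjusted p under 0.05 there were 0 members as well, and 3.25% of all genes. DESeq2 and limma also gave 0 members. The largest value was that of *C1ql2*, whose log2 fold change in EE was 0.13 in dorsal and -0.09 in ventral DG, a difference of 0.22 (SE 0.14). This difference was 0.13 without EE replicate 3 and 0.33 without EE replicate 4, and the ventral value -0.0027 and -0.21. For *Tdo2* the difference was 0.09 (SE 0.14), for *Npnt* -0.10 (SE 0.10) and for *Pdzd2* -0.0045 (SE 0.09). The range of 2 SE on either side ran from -0.06 to 0.49 for *C1ql2* and from -0.19 to 0.18 for *Pdzd2*, so that differences of this size could not be told from 0.

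Since both libraries of a pool came from the same mice, counts were also summed over the dorsal and ventral library of each pool and EE compared with SH over the 9 pools, an analysis chosen after the results by region were seen. *Tdo2* was called as lower in EE (log2 fold change -0.37, SE 0.07, adjusted p = 0.026 from edgeR). It was the 1 member called of 9, where 0.159% of the 18182 genes tested there were called as lower. In either direction 115 of these genes were called, 86 as higher and 29 as lower in EE. *Npnt* had a log2 fold change of -0.26 (SE 0.05, adjusted p = 0.012), just under the 1.2-fold limit. *Dsp* (-0.20, adjusted p = 0.097) and *Pdzd2* (0.21, adjusted p = 0.11) did not pass.

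The members varied together within groups. After the group mean was taken from the log2 CPM of each library, the correlation between members over the 18 libraries averaged 0.49 over the 36 pairs and ran from -0.18 to 0.93. The highest was that of *C1ql2* with *C1ql3*, and after it came *C1ql3* with *Stxbp6* (0.90) and *Lct* with *Stxbp6* (0.89). *Trpc6* and *Pdzd2* were outside this pattern, and without them the 21 pairs averaged 0.76 (lowest 0.48). These correlations are descriptions, and their points share libraries, depth and scaling. Most of the shared variation was in ventral EE. In its replicate 3 all 9 members were under their group mean, by 0.26 on the log2 scale on average, and in its replicate 4 all 9 were above it, by 0.27. The 11 other granule cell genes deviated in the same direction there, by -0.18 and 0.14. Ventral EE replicate 3 also had the highest summed level of choroid plexus genes (1420 CPM) and of oligodendrocyte genes (3074 CPM) of its group. The same held for CA pyramidal cell genes (1113 CPM) and for endothelial and mural genes (389 CPM). Its sums of hilar mossy cell genes (80.5 CPM) and immature neuron genes (71.9 CPM) were the lowest of the group. The part of these cells in its low member levels was not tested.

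The deviations of *Trpc6* did not follow the mean of the other granule cell genes. Its correlation with their mean deviation was 0.07, against 0.47 for *Pdzd2* and 0.58 to 0.88 for the other 7 members. *Glis3*, a gene of that list, had deviations that correlated with those of *Trpc6* by 0.94. *Trpc6* was above the group mean in the library numbered 2 of all 4 groups. In these 4 libraries 37.8 to 40.9% of the counted fragments were assigned to no gene, against 32.6 to 39.4% in the other 14. The part of this in the *Trpc6* level was not tested. Without the libraries numbered 2 the regional log2 fold change of *Trpc6* was 0.84 (SE 0.07).

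**Figure D5:**
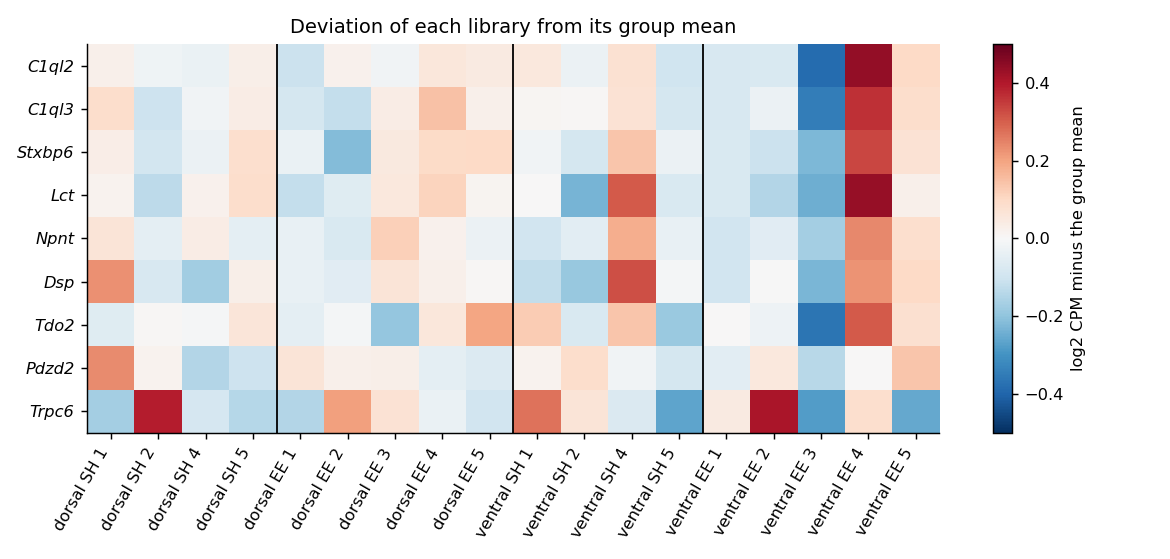
Deviation of each library (columns, by group and replicate number) from its group mean in log2 CPM (color, from -0.5 to 0.5) for the 9 granule cell identity genes (rows). Ventral EE replicate 3 is low and ventral EE replicate 4 high in nearly all rows, and the *Trpc6* row has its 2 highest values in libraries numbered 2.

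For 8 members the gene with the most similar log2 CPM over the 18 libraries was sought among 12201 genes with TPM above 1 in at least 3 samples. For *Lct* it was *Epha7*, which encodes an ephrin receptor (r = 0.998 over all libraries, 0.943 for deviations from the group means), for *Dsp* it was *Dgkh* (0.996 and 0.918) and for *Stxbp6* it was *Il1rap* (0.99 and 0.95). *C1ql2* was nearest to *Sesn1* (0.99 and 0.89), *Npnt* to *Gfra2* (0.99 and 0.91), *C1ql3* to *Syt10* (0.97 and 0.91) and *Tdo2* to *Btg1* (0.96 and 0.89). For *Trpc6* it was *Dgki* (0.99 and 0.97), which like *Dgkh* encodes a diacylglycerol kinase. The correlations over all libraries include the difference between regions, which all libraries of a region share. Those of the deviations leave it out and were 0.89 to 0.97.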

How the data were processed

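RNA-Seq files of 20 samples of dorsal and ventral DG were used. Samples of bisulfite and TAB sequencing were not used here. The authors aligned paired reads of a stranded total RNA kit to mm10 (per the labels, Trim Galore 0.4.0, STAR 2.5.1b and RSEM 1.2.30) and deposited a count of fragments per gene on either strand and on each strand, without normalization. In another table the authors deposited each gene's expected count and its TPM, which is scaled for transcript length and for the library. Rows that name no gene held 32.6 to 40.9% of the fragments in 18 libraries and were left out. Gene names and positions came from Gencode (GRCm38), with 45968 of 46480 genes named.

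Counts of the reverse strand were tested, and 0.0991 to 1.71% of each member's fragments were on the other strand. SH replicate 3 was left out in both regions, since the study excluded an SH sample for *Xist* without giving its number, and this replicate had 789 and 308 *Xist* counts against at most 16 elsewhere. Genes over 10 counts in 2 or more samples were fitted in R 4.3.3 with TMM scaling and quasi-likelihood tests of edgeR 4.0.16, with the 4 groups in one model. The SE of a log2 fold change was its size divided by the root of its F value. The region difference was tested as the mean over both housings, and DESeq2 1.42.0 and limma 3.58.1 on log2(TPM + 1) were alternatives. The procedure was tested on simulated data. No libraries of a group agreed within counting noise (chi-square per degree of freedom at least 2.77 in 32 pairs).

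The members and gene lists were chosen with earlier results of these data known. Of each list of related genes the text named at most 4 by the rule, the highest by TPM and those called with the largest regional differences, and the other names in it were chosen after their values were seen. Deviations from the group means correlated by -0.08 to 0.19 between the dorsal and ventral library of a pool, which the study took from the same mice, and the fit with the pool as replicate block changed no call of a member between regions. EE and SH libraries of one number correlated by 0.08 to 0.18, over 0.1 in all pairs of ventral but not of dorsal DG, and share only a number in the labels. That block is given beside ventral *Tdo2*, whose call it changed.

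Sequences are from RefSeq (GRCm38.p6), with motifs counted once per position on both strands. Values of a few other genes are not reported here.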

Additional observations from a re-analysis of the deposited data

Results flagged for a closer look

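One library lay far from the others of its group. *Trpc6* was at 235 CPM in dorsal SH replicate 2, beyond the other dorsal SH libraries by 0.873 of the group's whole range. This was the 1 such value among 36 groups of libraries checked (9 genes in 4 groups), of which chance alone would flag about 1 in 20. The same library had no other member far from its group.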

How the results depend on the processing

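Over both housings all 9 members were called as higher in dorsal DG under every alternative fitted across all genes, and within SH or EE alone 8 or 9 were. Against the mean of the other granule cell genes the regional log2 fold changes of *C1ql3* (-0.23), *Tdo2* (-0.30) and *Npnt* (-0.022) turned negative, since that mean itself was 0.69 higher in dorsal DG. For EE in dorsal DG, 1 member was called, with 2 under no filter on low counts, the likelihood ratio test, dorsal libraries alone and without the 3 libraries that stood apart, 0 under limma on TPM and without the libraries numbered 2, and 0 to 1 in the fits that left out 1 pool. In ventral DG, 0 members were called, with 1 under DESeq2, no filter on low counts and the likelihood ratio test, and 0 to 1 without 1 pool. With the replicate block 1 was called in dorsal and 1 in ventral DG, 9 of 9 in each regional comparison and 0 in the interaction, which stayed at 0 members under all alternatives.

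Small EE differences changed sign. Under limma on TPM this was so in dorsal DG for *C1ql2* (-0.12), *Lct* (-0.22), *Pdzd2* (-0.054) and *Trpc6* (-0.14) and in ventral DG for *Pdzd2* (-0.0079) and *Trpc6* (-0.11). On that scale the median over all genes was itself -0.21 in dorsal and -0.14 in ventral DG, and relative to this median these values were 0.087, -0.0055, 0.16 and 0.067 in dorsal and 0.13 and 0.022 in ventral DG, with *Lct* the 1 of them still below 0. Without the libraries numbered 2 it was so for *Lct* in dorsal (-0.014) and *Trpc6* in ventral DG (-0.036), and without 1 pool these ranged from -0.026 to 0.049 and from -0.054 to 0.15. The cause of these was not tested. Fits without the 3 libraries that stood apart, without the libraries numbered 2 and on pool sums were chosen after seeing the data. Counting error was small at this depth (at least 347 fragments per member).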
